A study of Sus scrofa with 15 samples.

Results

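KIT, the receptor tyrosine kinase on mast cells, its ligand KITLG and 4 genes that mark mast cells (CPA3, MS4A2, HDC and GATA2) were followed in the backfat of Iberian pigs fed 3 diets. These 6 genes were taken by symbol from the 30477 genes of the count tables, and KIT was chosen by its readout in these same pigs, being higher in both olive diets than in the control. Its levels in DOP vs. C and in WCOC vs. C are therefore given as a description, without a test. An Ensembl identifier was found for 5 of the 6 genes, and all 5 were among the 14918 genes that passed the filter on low counts. CPA3, which encodes a carboxypeptidase of the mast cell granule, had a locus on chromosome 13 in the RefSeq annotation but no matching identifier, and it was not analysed here.

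Mast cells grow from blood-borne progenitors and settle in connective tissue, fat and skin, often beside vessels. Stem cell factor, the product of KITLG, is made by stromal and endothelial cells and binds KIT, and mast cells need this signal to mature and survive. An antigen bound by IgE on the high-affinity IgE receptor makes them release granules that hold histamine and proteases. KIT is also carried by melanocytes, interstitial cells of the gut and blood progenitors.

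Each diet had 5 pigs and each pig gave 1 library of RNA from subcutaneous fat. All pigs were of the Iberian breed, entered the trial at 6.5 months of age and were biopsied at 12 months. The control pigs (C) were given a compound feed without olive by-products, the DOP pigs a compound feed made with dry olive pulp, and the WCOC pigs a compound feed with a silage of wet crude olive cake and barley straw. The amount of feed was restricted in all diets, the silage was not, and each diet was fed in its own pen, so diet and pen cannot be told apart. The 5 pigs of a diet were picked from a larger group by the amount and quality of their RNA.

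The number of counts on genes ranged from 22373715 to 34745218 per library. Expression is given as CPM, the counts of a gene over the total of its library after TMM scaling. The 5 DOP libraries and C replicate 5 were read on a different flow cell from the other 9 libraries. The adipocyte marker list (7 genes, led by ADIPOQ) summed to 10770 to 18870 CPM in the 15 libraries. Skeletal muscle markers (3 genes found) ranged from 15.5 to 37590 CPM and were highest in DOP replicates 2, 4 and 5. The macrophage markers (9 genes) summed to 246.5 to 727 CPM in C, 175.9 to 441.3 in DOP and 116.8 to 325.3 in WCOC, with the highest sums, 560.1 and 727, in C replicates 3 and 5. In bulk tissue, fewer cells of a type and less RNA per cell cannot be told apart.

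The primers with which the study measured KIT by RT-qPCR are shown because KIT is the gene that opened this set, and because they fix which exons that assay reads. Each is written from its 5′ end, with capitals at the bases that differ from the Sscrofa11.1 RefSeq transcript of KIT.
KIT forward: tcgcagcgggtatgatgtgtat
KIT reverse: TaAgGaAttgcgttgggtctatg
The forward primer (22 bases) matched exon 11 of 22 without a mismatch, at chr8:41479496-41479517 on the plus strand. The best match of the reverse primer (23 bases) lay in exon 12, at chr8:41479709-41479731, with 4 mismatches near its 5′ end. Counted from 1 at the 5′ end of the primer, with the primer's base first, they were T1A, A3G, G5A and A7G. The pair spans 141 bases of the transcript and crosses the intron between these exons.

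KIT (ENSSSCG00000008842, chr8:41402334-41492306, plus strand) had a lower level in every control pig than in every pig on an olive diet. In C, replicates 1 to 5 had 8.98, 7.6, 6.43, 5.96 and 7.39 CPM. The DOP pigs, in the same order, had 16.8, 11.9, 10.3, 11.5 and 11.99 CPM. The WCOC pigs had 18, 11.5, 11.6, 13.98 and 11.2 CPM. DOP replicate 1 and WCOC replicate 1 stood above the other pigs of their diet, and the other 8 olive pigs lay between 10.3 and 13.98 CPM.

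The mean of KIT was 7.27 ± 1.17 CPM in C, 12.5 ± 2.5 in DOP and 13.2 ± 2.88 in WCOC (SD, n = 5 each). These levels rested on 153 to 223 counts per library in C, 305 to 418 in DOP and 307 to 550 in WCOC. The log2FC was 0.78 (SE 0.167) for DOP vs. C and 0.87 (SE 0.167) for WCOC vs. C, both part of the choice of the gene. Leaving out 1 library at a time kept it between 0.65 and 0.86 for DOP vs. C and between 0.73 and 0.94 for WCOC vs. C. Within flow cell A, which held C replicates 1 to 4 and all WCOC libraries, the log2FC of WCOC vs. C was 0.86 (SE 0.184). On the other flow cell the only control library had 7.39 CPM, below all 5 DOP libraries.

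The contrast between the olive diets took no part in the choice of KIT and could be tested. The log2FC of KIT in WCOC vs. DOP was 0.087 (SE 0.165, 95% interval -0.24 to 0.41, adjusted p = 0.78, edgeR quasi-likelihood test, Benjamini-Hochberg adjusted over the whole table). No difference in KIT was detectable between the olive diets, and the interval leaves room for differences of up to 0.41 on the log2 scale. The sign of this small value turned without WCOC replicate 1 (-0.048).

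**Figure D1:**
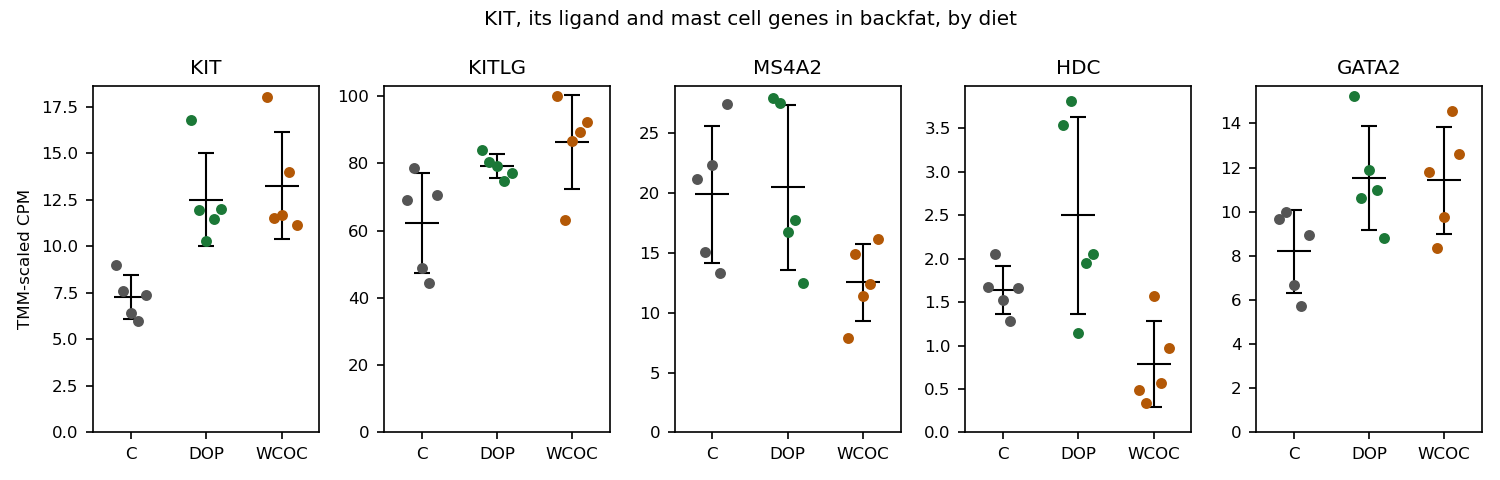
TMM-scaled CPM (vertical axis, from 0) of KIT, KITLG, MS4A2, HDC and GATA2 in the 5 pigs of each diet; points are libraries in the order of their replicate numbers, the bar is the mean and the whiskers are 1 SD. The KIT points of C end at 8.98 CPM, below the lowest olive-diet point of 10.3 CPM, while in the other 4 genes the diets overlap.

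KITLG (ENSSSCG00000035495, chr5:94016992-94110219, plus strand), the gene of stem cell factor, was the most abundant of the 5 genes. The control pigs had 69.1, 78.6, 48.8, 44.6 and 70.5 CPM (mean 62.3 ± 14.8, SD, n = 5). The DOP pigs had 84.1, 80.5, 79.4, 74.8 and 77.0 CPM (79.2 ± 3.54). The WCOC pigs had 100.2, 63.2, 86.7, 89.4 and 92.3 CPM (86.4 ± 13.9). C replicates 3 and 4 were the lowest of the 15 libraries, WCOC replicate 2 was the next, and the diets overlapped in all 3 comparisons. The log2FC was 0.35 (SE 0.149, adjusted p = 0.247) in DOP vs. C, 0.47 (SE 0.149, adjusted p = 0.0584) in WCOC vs. C and 0.13 (SE 0.149, adjusted p = 0.631) in WCOC vs. DOP in the edgeR test. None of these passed the limits of the study for a differentially expressed gene (DEG), which are 0.05 on the adjusted p and 0.58 on the size of the log2FC.

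GATA2 (ENSSSCG00000011618, chr13:71981139-71997626, plus strand) encodes a zinc finger transcription factor needed for mast cells and also present in blood progenitors and endothelium. The control pigs had 9.66, 9.996, 6.69, 5.73 and 8.95 CPM (8.2 ± 1.89). The DOP pigs had 15.2, 10.6, 11.9, 11 and 8.82 CPM (11.5 ± 2.36), and the WCOC pigs had 11.8, 8.35, 9.76, 14.6 and 12.6 CPM (11.4 ± 2.44). Most olive pigs lay above the controls, but 1 DOP pig and 2 WCOC pigs lay within the control range. The log2FC was 0.49 (SE 0.192, adjusted p = 0.209) in DOP vs. C and 0.48 (SE 0.192, adjusted p = 0.128) in WCOC vs. C, and neither was a DEG in the edgeR test. In WCOC vs. DOP it was -0.011 (SE 0.191, 95% interval -0.39 to 0.36, adjusted p = 0.978), a value whose sign turned under other settings. GATA2 overlaps LOC102160340 on the opposite strand, and the strand option of the counting is not given in the sources used here, so part of its counts could belong to that neighbour.

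Endothelial markers (6 genes found, led by PECAM1) were lowest in the same libraries as KITLG and GATA2. Their sum was 909.3 to 1127 CPM in C, 1178 to 1525 in DOP and 968.6 to 1616 in WCOC. The lowest sums, 909.3, 968.6 and 1002 CPM, were those of C replicate 4, WCOC replicate 2 and C replicate 3, which were also the 3 lowest libraries for KITLG and for GATA2. The highest sums, 1525 and 1616 CPM, were those of DOP replicate 1 and WCOC replicate 4, which were also the highest for GATA2. DOP replicate 4 had a sum of 1475 CPM but the lowest KITLG of the DOP pigs (74.8 CPM). The median log2FC of the 6 genes was 0.32 in DOP vs. C, 0.37 in WCOC vs. C and 0.084 in WCOC vs. DOP, and their part in the levels of KITLG and GATA2 was not tested. Melanocyte markers (8 genes found) summed to 5.89 to 9.62 CPM in C, 6.26 to 8.68 in DOP and 7.64 to 10.4 in WCOC, with medians of 7.22, 7.55 and 10.01. Most abundant were SOX10, also a gene of Schwann cells, with 2.35 to 3.92 CPM in C and 3.47 to 6.54 CPM in WCOC (log2FC 0.59, SE 0.202, edgeR adjusted p = 0.078), and SLC45A2, with 2.39 to 4.14 CPM in C and 2.85 to 4.8 CPM in WCOC (log2FC 0.26, SE 0.223, edgeR adjusted p = 0.479). Their part in the levels of KIT was not tested. Of the other genes of the list, TYR, TYRP1 and MC1R had at most 0.0803 CPM in any library. PMEL reached 0.49 CPM, and DCT had 0.286 to 1.36 CPM. MLANA reached 0.86 CPM in C and 0.112 CPM in WCOC, and it had 0 CPM in the DOP libraries.

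MS4A2 (ENSSSCG00000034506, chr2:11400415-11420314, minus strand), which encodes the beta chain of the high-affinity IgE receptor, showed another pattern. The control pigs had 21.2, 15.1, 22.4, 13.3 and 27.4 CPM (19.9 ± 5.71). The DOP pigs had 27.9, 27.5, 16.7, 17.7 and 12.5 CPM (20.5 ± 6.9), and the WCOC pigs had 7.92, 14.9, 11.4, 12.4 and 16.1 CPM (12.5 ± 3.2). The WCOC pigs were low as a group, and their range overlapped that of both other diets. The log2FC was 0.041 (SE 0.254, 95% interval -0.46 to 0.54, adjusted p = 0.957) in DOP vs. C, -0.67 (SE 0.255, adjusted p = 0.114) in WCOC vs. C and -0.71 (SE 0.255, adjusted p = 0.0838) in WCOC vs. DOP, none of them a DEG in the edgeR test. For WCOC vs. DOP, DESeq2 gave -0.71 with an adjusted p of 0.042, and edgeR with flow cell as a covariate gave -0.1 (SE 0.497, adjusted p = 0.941). MS4A2 overlaps LOC110259254 on the opposite strand, which leaves its counts uncertain in the same way as those of GATA2.

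HDC (ENSSSCG00000004644, chr1:121505677-121525416, plus strand) encodes histidine decarboxylase, the enzyme that makes histamine, and it was the only 1 of the 5 genes that was a DEG outside the contrasts of the choice. The control pigs had 1.67, 2.05, 1.53, 1.28 and 1.66 CPM (1.64 ± 0.277). The DOP pigs had 3.54, 3.81, 1.14, 1.95 and 2.06 CPM (2.5 ± 1.13), and the WCOC pigs had 0.491, 0.337, 1.57, 0.572 and 0.974 CPM (0.788 ± 0.495). These values rested on 33 to 50 counts per library in C, 37 to 101 in DOP and 9 to 48 in WCOC. WCOC replicates 1, 2, 4 and 5 lay below every other pig and WCOC replicate 3 within the control range, while DOP replicates 1 and 2 stood well above the controls and DOP replicate 3 below them.

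HDC was lower in WCOC than in DOP by a log2FC of -1.65 (SE 0.393, adjusted p = 0.0171, edgeR). The call held in all 10 fits that left out 1 library (log2FC -2.05 to -1.45). It was lost with flow cell as a covariate (log2FC -1.63, SE 0.851, adjusted p = 0.396), where C replicate 5 alone links the flow cells, so that diet and flow cell could hardly be separated in this comparison, and also without DOP replicates 2, 4 and 5, the libraries with the highest muscle markers (log2FC -1.56, SE 0.505, adjusted p = 0.216). C replicate 5, the control on the flow cell of DOP, had 1.66 CPM, within the 1.28 to 2.05 CPM of the controls on the flow cell of WCOC. In WCOC vs. C the log2FC was -1.04 (SE 0.394, adjusted p = 0.107) and in DOP vs. C it was 0.61 (SE 0.38, adjusted p = 0.435), neither a DEG in the edgeR test. Without WCOC replicate 3, the WCOC vs. C value was -1.45 and passed both limits.

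Read against all genes, the counts of DEGs among these 5 genes were small. In DOP vs. C, 0.764% of the 14918 tested genes were DEGs, and 3.47% had CPM that did not overlap between the diets. In WCOC vs. C the shares were 6.25% and 7.62%, and in WCOC vs. DOP 7.76% and 8.9%. KIT was the only 1 of the 5 past the limits, and the only 1 without overlap, in the first and in the second comparison, which follows from its choice. In WCOC vs. DOP, 1 of 5 was a DEG (HDC) and 0 of 5 had ranges that did not overlap. There 2 of 5 were at an unadjusted p under 0.05 in the edgeR test, beside 4196 of all tested genes. With KIT left out, KITLG and GATA2 were under this limit in DOP vs. C, beside 2623 of all tested genes. KITLG, MS4A2, HDC and GATA2 were under it in WCOC vs. C, beside 3931 of all tested genes.

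To set the genes side by side, CPM was divided by the length of the merged RefSeq exons. The counts were made on genes with Ensembl identifiers, whose exons may differ from these. Counts of MS4A2 and GATA2 may also hold reads of a neighbour, so the order of the genes is approximate. As CPM per kilobase, KITLG had 10.4 ± 2.48 in C, 13.2 ± 0.592 in DOP and 14.4 ± 2.33 in WCOC. MS4A2 followed with 5.28 ± 1.52, 5.44 ± 1.83 and 3.33 ± 0.849. KIT had 1.955 ± 0.314, 3.36 ± 0.672 and 3.56 ± 0.774 CPM per kilobase. The ranges of 1 SD of MS4A2 and KIT were apart in C and overlapped in DOP and in WCOC, where the mean of KIT was the higher one. GATA2 had 1.23 ± 0.283, 1.72 ± 0.353 and 1.71 ± 0.365 CPM per kilobase. HDC was last with 0.338 ± 0.0572, 0.516 ± 0.234 and 0.163 ± 0.102 CPM per kilobase.

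The upstream sequence of MS4A2 is shown because, of the 6 genes, only its start site window held AGATAA or TGATAA. These are forms of the letters to which GATA factors such as GATA2 bind. The windows ran from 250 bases before to 50 bases after the RefSeq start site in Sscrofa11.1. They were searched on both strands for AGATAA and TGATAA alone. Other forms were not searched, so an agatag in the window of MS4A2 is neither marked nor counted. That of MS4A2, at chr2:11420265-11420564 on the minus strand, is written 5′ to 3′ with the match in capitals.
MS4A2: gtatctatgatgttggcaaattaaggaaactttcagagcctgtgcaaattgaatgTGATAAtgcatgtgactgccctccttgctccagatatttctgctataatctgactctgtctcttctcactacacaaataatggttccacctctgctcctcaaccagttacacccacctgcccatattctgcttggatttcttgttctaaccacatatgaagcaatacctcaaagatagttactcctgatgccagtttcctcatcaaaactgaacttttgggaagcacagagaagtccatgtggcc
The match starts 195 bases before the start site. Of the windows of 19556 protein-coding genes, 14.8% held at least 1 such match, so a match of these letters in 1 of 6 windows is near that share. These letters describe the sequence and do not show that the site is bound.

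Mast cell genes beyond the 6 were taken from a list of 30 identity and granule genes, which included KIT, CPA3, MS4A2, HDC and GATA2. Identifiers were found for 20 and 17 passed the filter, while those of the tryptases, chymase and cathepsin G, the most typical granule proteases, were not found, so the granule is poorly covered. KIT is left out of the counts against C, since it was chosen there. In DOP vs. C, 0 of the other 16 were DEGs in the edgeR test. At an unadjusted p under 0.05 were 6 of them, beside 2623 of all 14918 tested genes. DESeq2 called 2, both lower, beside 518 of 15436 genes, and limma-voom 0, beside 19 of 14918. The median log2FC of the other 16 was -0.053, beside 0.011 over all tested genes. In WCOC vs. C, 3 of the 16 were DEGs, or 18.8% beside 6.25% of all tested genes. SRGN, which encodes the proteoglycan core of granules, RGS13, a regulator of G protein signals, and CD200R1, an inhibitory receptor of mast cells and other myeloid cells, were lower. The median log2FC of the 16 was -0.79, beside 0.004 over all tested genes, with 14 of 16 at a negative value. RGS13 passed the filter on low counts through the controls alone (9 to 68 counts in C, 0 to 9 in DOP and 4 to 6 in WCOC), so it had to be lower outside C to be tested. Without it, 2 of 15 were DEGs in WCOC vs. C and the median was -0.67. In DOP vs. C, 0 of 15 were then DEGs in the edgeR test, with 5 at an unadjusted p under 0.05. The median there was 0.041 without it, and DESeq2 called 1 gene, which was lower.

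The values of the 3 lower genes were as follows. SRGN had 42.1, 53.4, 107.8, 57.6 and 114.5 CPM in C and 26.6 to 45.7 CPM in WCOC (log2FC -1.03, SE 0.259, edgeR adjusted p = 0.0237). CD200R1 had 6.23, 12.4, 22.1, 7.91 and 37.1 CPM in C and 3.27 to 6.14 CPM in WCOC (log2FC -1.96, SE 0.462, edgeR adjusted p = 0.0175). In each of these genes C replicates 3 and 5, the libraries with the highest macrophage markers, were also the highest. RGS13 had 0.441, 0.854, 1.94, 0.39 and 2.25 CPM in C and 0.131 to 0.225 CPM, or 4 to 6 counts, in WCOC (log2FC -2.72, SE 0.68, edgeR adjusted p = 0.0221), with the same 2 control libraries on top. Since RGS13 passed the filter through C alone, its values are a description and its call does not count as a test.

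C replicates 3 and 5 were left out as a choice made after seeing the data. Then 0 of 17 tested mast cell genes other than KIT were DEGs in WCOC vs. C, beside 289 of all 15252 tested genes. In this edgeR test 5 of the 17 were at an unadjusted p under 0.05, beside 2877 of all tested genes. The median of the 17 was -0.4 (-0.34 without RGS13). SRGN then had a log2FC of -0.47 (edgeR adjusted p = 0.203), RGS13 of -1.64 (0.224) and CD200R1 of -1.01 (0.173). Leaving out C replicate 3 or C replicate 5 alone ended the calls of SRGN and RGS13, as did leaving out WCOC replicate 1, WCOC replicate 3 for SRGN and WCOC replicate 4 for RGS13, and the call of CD200R1 was lost without WCOC replicate 1. Within flow cell A, CD200R1 had a log2FC of -1.48 (edgeR adjusted p = 0.044) and SRGN of -0.83 (0.0862), and with flow cell as a covariate RGS13 had -2.35 (0.0532). The log2FC of KIT in WCOC vs. C was 0.82 without C replicates 3 and 5. Of the 9 macrophage markers, 5 were DEGs in WCOC vs. C, all lower (median log2FC of the list -1.16), beside 6.25% of all tested genes. The part of macrophages in the values of the mast cell list was not tested.

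**Figure D2:**
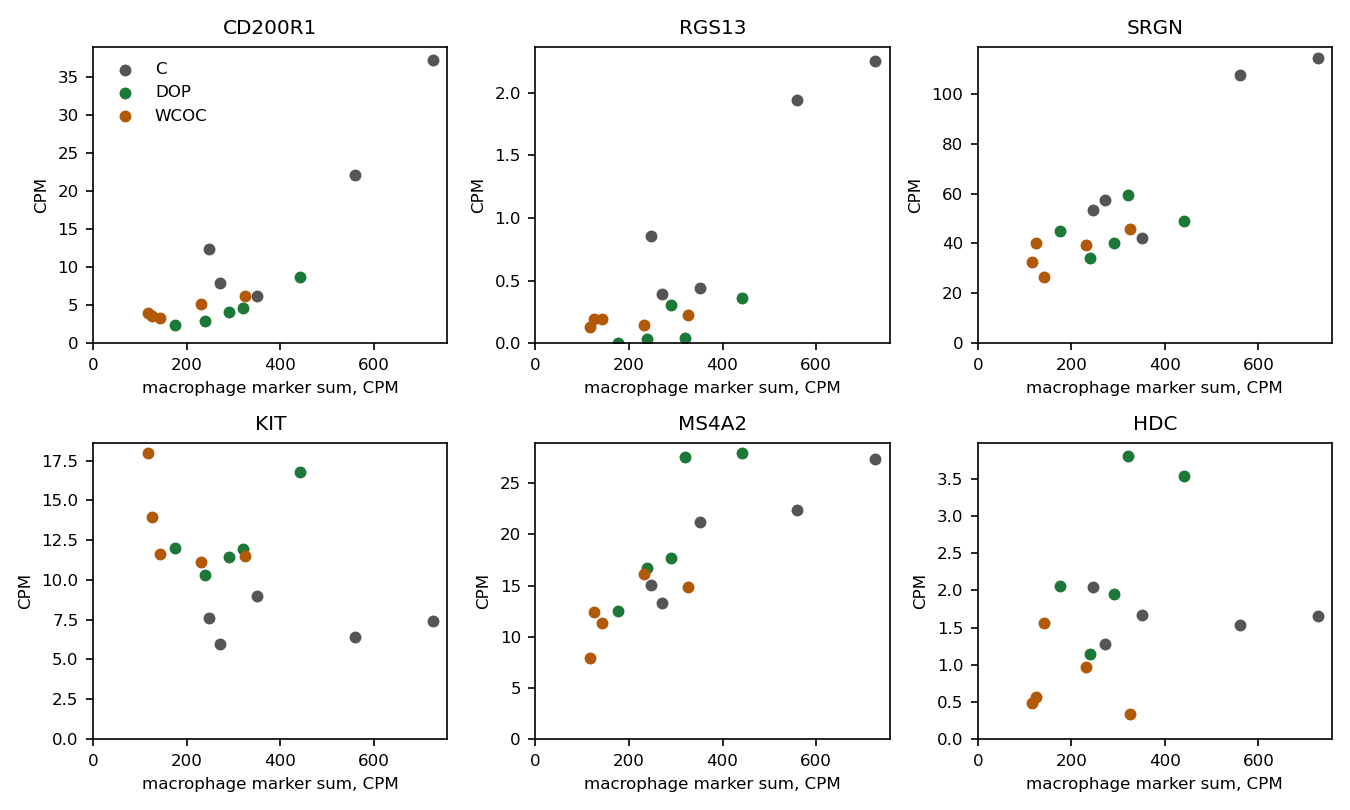
CPM of 6 genes (vertical axes, from 0) against the summed CPM of 9 macrophage markers (horizontal axes) in the 15 libraries, coloured by diet. In the panels of CD200R1, RGS13 and SRGN the 2 control libraries with macrophage sums of 560.1 and 727 CPM are the highest points, and in the panel of KIT these same libraries lie at 6.43 and 7.39 CPM, within the control range of 5.96 to 8.98 CPM.

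In WCOC vs. DOP, HDC was the only DEG of the 17 mast cell genes, where 7.76% of all tested genes were DEGs. The list median was -0.31, beside 0.001 over all tested genes. FCER1A, the alpha chain of the IgE receptor that binds IgE itself, had 1.01 to 4.5 CPM in DOP and 0.318 to 1.37 CPM in WCOC (log2FC -1.41, SE 0.446, edgeR adjusted p = 0.0502) and did not pass the limits. ENPP3, a surface enzyme of basophils and mast cells, had 2.14 to 3.09 CPM in DOP and 1.65 to 2.19 CPM in WCOC (log2FC -0.52, SE 0.152, edgeR adjusted p = 0.0381), which was under the limit on the size. Both are named for their nearness to the limits, after their values were seen. The log2FC of KIT and GATA2 in this comparison was 0.087 and -0.011. With flow cell as a covariate the list's median turned to 0.32 and 0 of 17 were DEGs, beside 1 of all 14918 tested genes.

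**Figure D3:**
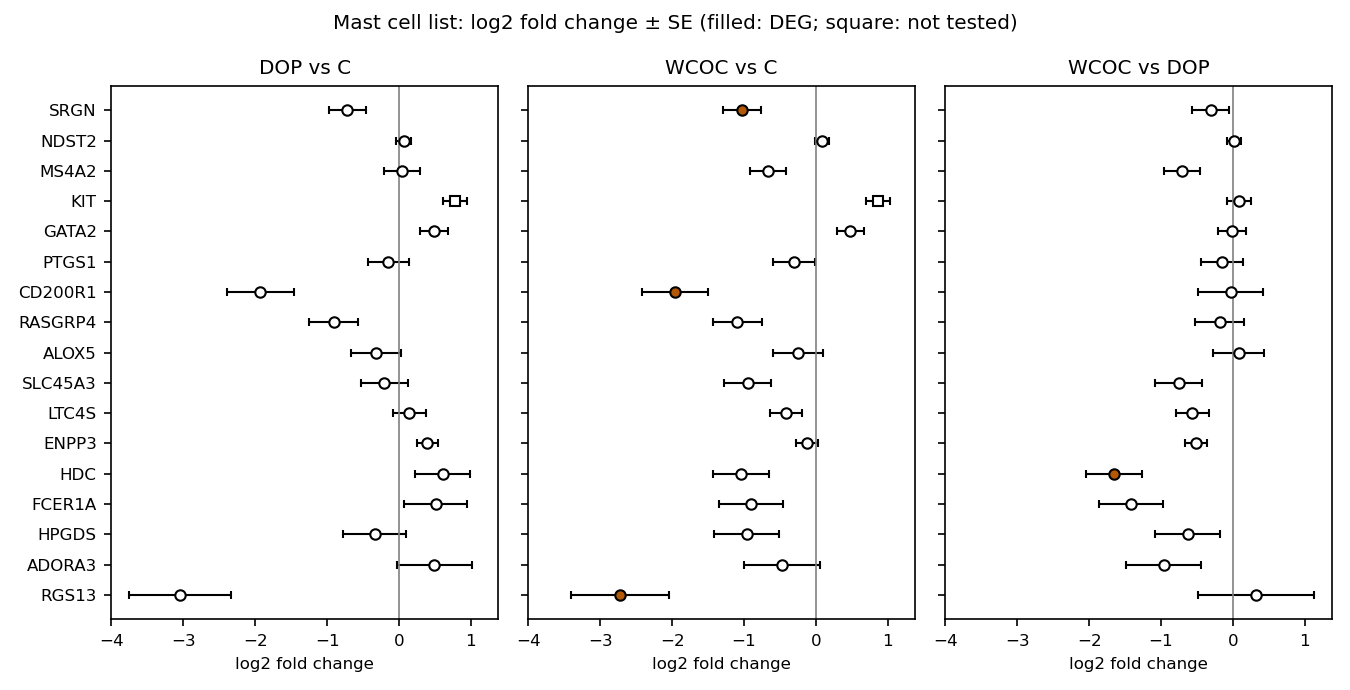
The log2 fold change (horizontal axes) with its SE for the 17 tested mast cell genes, from the least abundant at the bottom to the most abundant at the top, in the 3 comparisons. Filled circles are DEGs, open circles are not, and the squares of KIT mark the contrasts that chose it and were not tested. RGS13 passed the filter on low counts through C alone. In WCOC vs. C 14 of 17 points lie left of 0, with KIT at 0.87.

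KIT signals through Src family kinases, the RAS and MAP kinase cascade, PI3 kinase and STAT5, and 36 of the 38 genes of this pathway list were tested. PTPN11, the phosphatase that passes the signal to RAS, was the most abundant (233.3 CPM on average), with a log2FC of -0.024 and 0.11 against C (edgeR adjusted p = 0.945 and 0.575). Beside KIT, which is left out of the counts against C, 1 of 35 was a DEG in DOP vs. C, or 2.86% beside 0.764% of all tested genes. This was GRB10, an adaptor that dampens receptor signals. GRB10 had 47.5 to 59.4 CPM in C and 61.9 to 102.5 CPM in DOP (log2FC 0.63, SE 0.141, edgeR adjusted p = 0.0484). The call was lost in 8 of the 10 fits that left out 1 library, with values from 0.53 to 0.71. It held only without C replicate 1 or without DOP replicate 1. Over all tested genes these 10 fits gave 0 to 200 DEGs. In WCOC vs. C, 2 of the 35 were DEGs, or 5.71%, near the 6.25% of all tested genes. The adaptors GAB2 (log2FC -0.6, SE 0.161, edgeR adjusted p = 0.0311) and DOK2 (log2FC -1.53, SE 0.408, edgeR adjusted p = 0.03) were lower. GAB2 had 71.3 to 90.5 CPM in C and 39.6 to 61.8 CPM in WCOC. DOK2 had 13.9 and 15.6 CPM in C replicates 3 and 5 and 3.38 to 5.57 CPM in the other controls, beside 2.03 to 4.23 CPM in WCOC. The call of DOK2 was lost without any of C replicates 3 and 5 and WCOC replicates 1, 3 and 4, and that of GAB2 without any of C replicates 3 and 4 and WCOC replicates 1, 4 and 5. Within flow cell A, GAB2 had a log2FC of -0.64 (adjusted p = 0.0325) and DOK2 of -1.21 (adjusted p = 0.112).

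Between the olive diets, SPRY2, a feedback inhibitor of the cascade, was a DEG. It had 22.9 to 27.1 CPM in C, 30.2 to 43.3 CPM in DOP and 22.3 to 25.1 CPM in WCOC. Its DOP values lay above all others (WCOC vs. DOP log2FC -0.59, SE 0.097, edgeR adjusted p = 0.00302, lost without DOP replicate 1, DOP replicate 2 or WCOC replicate 5). Without DOP replicates 2, 4 and 5, the libraries with the highest muscle markers, the log2FC of SPRY2 was -0.54 (adjusted p = 0.0469), under the limit on the size. With flow cell as a covariate it was -0.6 (adjusted p = 0.302). The part of muscle in these values was not tested. The median log2FC of the KIT pathway list was 0.016, 0.029 and 0.052 in the 3 comparisons, close to that of all tested genes.

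Signalling from the IgE receptor was followed in 26 of 29 listed genes, of which CD63, a granule membrane protein of many cells, was the most abundant (344.7 CPM on average). WCOC vs. C gave 4 DEGs of 26, all lower, beside 6.25% of all tested genes. The median log2FC of the list was -0.43 there and -0.26 in DOP vs. C, with 18 and 21 of 26 genes at a negative value. The 4 DEGs were STX3, a syntaxin of secretion (log2FC -1.69, SE 0.407, edgeR adjusted p = 0.0192), VAV1, an exchange factor of blood cells (-1.49, SE 0.404, 0.0321), LAT2, a membrane adaptor (-1.24, SE 0.311, 0.0235), and GAB2. Within flow cell A these values were -1.23, -1.11, -0.96 and -0.64, and only GAB2 passed the limits there. C replicates 3 and 5 were the highest libraries for STX3 (9.05 and 14.9 CPM), VAV1 (31.4 and 42.6 CPM) and LAT2 (46.1 and 55.7 CPM). Without C replicates 3 and 5, 0 of 26 were DEGs in this comparison, beside 289 of all 15252 tested genes. Leaving out C replicate 3 or C replicate 5 alone ended the calls of VAV1 and LAT2, as did leaving out any of WCOC replicates 1, 3 and 4, and the call of STX3 was lost without WCOC replicate 1. STX3 was also the only DEG of the 26 in DOP vs. C (log2FC -1.84, SE 0.41, edgeR adjusted p = 0.0484), where 0.764% of all tested genes were DEGs. It passed only without C replicate 1 among the 10 fits that left out 1 library, which gave 0 to 200 DEGs over all tested genes. In WCOC vs. DOP, UNC13D, which primes granules for release, was the only DEG of the 26, beside 7.76% of all tested genes. It was higher in WCOC (8.15 to 11.2 CPM in DOP, 13.5 to 17.4 CPM in WCOC, log2FC 0.62, SE 0.168, edgeR adjusted p = 0.0292). The call was lost without any of DOP replicates 4 and 5 and WCOC replicates 3 and 4. With flow cell as a covariate in edgeR the log2FC was 1.22 (adjusted p = 0.253).

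Histamine handling was covered by 7 tested genes of 12 listed. HDC was the only DEG of the 7 in WCOC vs. DOP, where 7.76% of all tested genes were DEGs. In DOP vs. C and WCOC vs. C 0 of 7 were DEGs in the edgeR test. At an unadjusted p under 0.05 was 1 in each, beside 2623 and 3931 of all 14918 tested genes. DESeq2 called 1 and 0, beside 518 and 1215 of 15436 genes. With limma-voom 0 and 0 were called, beside 19 and 882 of 14918 genes. HNMT, which methylates histamine, had log2FC values of -0.034, -0.32 and -0.29 in the 3 comparisons (edgeR adjusted p = 0.954, 0.322 and 0.377). ALDH7A1, the most abundant of the list (252.1 CPM on average), had a log2FC of 0.46 in WCOC vs. DOP (edgeR adjusted p = 0.0338), under the limit on the size.

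Of 15 transcription factors that act with or beside GATA2, 12 were tested, and CEBPA was the most abundant (700.7 CPM on average). In WCOC vs. C, 3 of 12 were DEGs, beside 6.25% of all tested genes. ERG, a factor of endothelium and blood progenitors, was higher (43.1 to 55.4 CPM in C, 59.9 to 89.9 CPM in WCOC, log2FC 0.64, SE 0.1, edgeR adjusted p = 0.00176), and it stayed a DEG in all 10 fits without 1 library and without C replicates 3 and 5 (0.59, adjusted p = 0.024). RUNX1 and SPI1, factors of myeloid cells, were lower (log2FC -0.97, SE 0.276, edgeR adjusted p = 0.0387, and -1.28, SE 0.371, edgeR adjusted p = 0.0408). They were highest in C replicates 3 and 5, with 31.0 and 39.7 CPM for RUNX1 and 54.6 and 76.1 CPM for SPI1. Both calls were lost without C replicate 3, C replicate 5 or any of WCOC replicates 1, 3, 4 and 5. In DOP vs. C and WCOC vs. DOP 0 of 12 were DEGs in the edgeR test. At an unadjusted p under 0.05 were 5 and 3, beside 2623 and 4196 of all 14918 tested genes. DESeq2 called 1 and 0, beside 518 of 15436 and 1528 of 16731 genes. With limma-voom 0 and 0 were called, beside 19 and 822 of 14918 genes.

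Cytokines that act on mast cells (13 listed, 7 tested, KITLG among them) held no DEG in any comparison in the edgeR test. At an unadjusted p under 0.05 were 1, 2 and 1 genes, beside 2623, 3931 and 4196 of all 14918 tested genes. DESeq2 called 0 in each, beside 518, 1215 and 1528 of all genes it tested. With limma-voom 0, 1 and 0 were called, beside 19, 882 and 822 of 14918 genes. CXCL12, which draws progenitors into tissue, was the most abundant of them (502.4 CPM on average), with log2FC values of 0.042, -0.12 and -0.16 (edgeR adjusted p = 0.928, 0.666 and 0.549).

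From pig to pig within a diet, the 5 genes fell into uneven company. Relations were computed on log2 CPM with each value centred on the mean of its diet, over 10 pairs of genes and 15 libraries, and tested two-sided by all 1728000 arrangements of the libraries within diets. The pairs share libraries and are not independent of each other. KITLG and GATA2 were the closest pair, with a Pearson r of 0.80 (exact permutation p = 0.00117, adjusted over the 10 pairs 0.0117) and a Spearman rho of 0.77 (p = 0.00286, adjusted 0.0286). Without C replicate 4 and WCOC replicate 2, the libraries farthest from the median of KITLG, r was 0.63 (exact permutation p = 0.0237, adjusted 0.143). The adjusted result was thus lost without those 2 libraries. Leaving out the extremes of KITLG also narrows its range, so the loss alone does not show that the relation depends on them. Within flow cell A alone (9 libraries) r was 0.88 (exact permutation p = 0.0153, adjusted 0.153), and rho was 0.80 (p = 0.0437, adjusted 0.391). No value is given for the other flow cell, where 5 libraries of DOP and a single control were read.

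KIT and KITLG had an r of 0.59 (exact permutation p = 0.0285, adjusted 0.0951) and a rho of 0.70 (p = 0.00698, adjusted 0.0349), and KIT and GATA2 an r of 0.62 (p = 0.0247, adjusted 0.0951) and a rho of 0.61 (p = 0.0316, adjusted 0.105). Without DOP replicate 1 and WCOC replicate 1, r was 0.63 for each (exact permutation p = 0.0988 for KITLG and 0.0648 for GATA2). Within flow cell A, r was 0.68 for KIT and KITLG (exact permutation p = 0.0625, adjusted 0.312) and 0.62 for KIT and GATA2 (p = 0.101, adjusted 0.338). The relation of KIT to the other mast cell genes was weak. With MS4A2, r was 0.027 (exact permutation p = 0.929) and rho 0.061 (p = 0.842), and with HDC r was 0.15 (p = 0.635) and rho 0.23 (p = 0.44). Within flow cell A, these r were -0.39 (exact permutation p = 0.332) and -0.17 (p = 0.709). MS4A2 and HDC had an r of 0.34 (exact permutation p = 0.25, adjusted 0.475) and a rho of 0.48 (p = 0.102, adjusted 0.253).

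**Figure D4:**
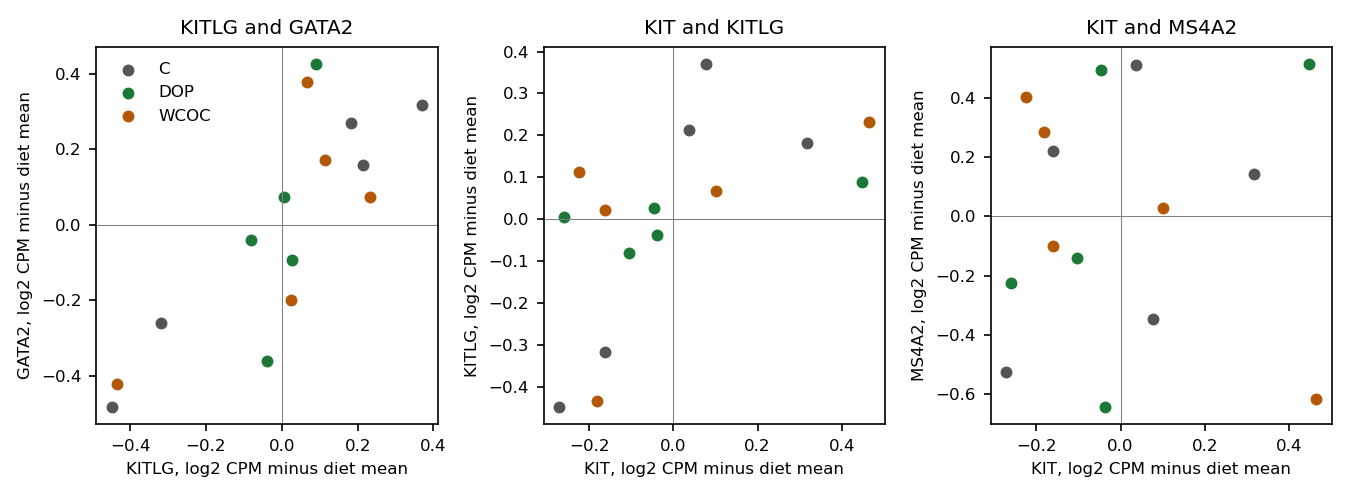
Log2 CPM minus the diet mean of 3 pairs of genes in the 15 libraries, coloured by diet; each axis is in log2 units. KITLG and GATA2 (r = 0.80) fall along a rising line with C replicate 4 and WCOC replicate 2 among the 3 lowest points on the left, KIT and KITLG (r = 0.59) do so more loosely, and KIT and MS4A2 (r = 0.027) scatter without order.

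The genes whose diet-centred log2 CPM was most like that of KIT over the 15 libraries were named from 11133 genes with a symbol and a mean of at least 1 CPM, as a description. They were ABCA13 (r = 0.88), PCMTD2 (0.83), GJC1 (0.80), IRF2BPL (0.78), SYNE3 (0.78), HES2 (0.77), SMUG1 (0.76) and REC8 (0.76). None of the 8 is on the mast cell list. That list had 17 tested genes, KIT among them, beside 11133 genes compared, so this absence carries no information. CPA3, the tryptases and chymase had no identifier and could not appear. Among the 11133 genes GATA2 ranked 102 and KITLG 171, whereas HDC ranked 3504 and MS4A2 5042. The 8 highest of 11133 values are high in part because so many were compared over so few libraries.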

How the data were processed

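RNA of backfat biopsies was read as 15 paired-end libraries, 5 pigs per diet. The authors aligned the reads with HISAT2, set as strand-specific, to Sscrofa11.1. They then used HTSeq to count reads by gene, and the deposited values are raw counts, neither normalized nor pooled. Summary lines that name no gene (23.4% to 32.8% of a library) stayed out of library sizes and tests. Versions, the annotation release and the strand option of the counting are not given in the sources used here. Flow cells were read from the run identifiers.

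CPM and log2 values were computed here from the deposited counts. The filter on low counts was filterByExpr by diet in edgeR 4.0.16 (R 4.3.3), and TMM set the library scale. All 15 libraries shared 1 quasi-likelihood fit, whose two-sided p-values were adjusted by Benjamini-Hochberg across 14918 genes. The common dispersion was 0.0814. DEGs passed the limits of the study, 0.05 for the adjusted p and 0.58 for the size of the log2FC. Intervals at 95% cover the standard error only. Log2 CPM for the relations used a prior count of 1. The workflow was tested on simulated counts.

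Symbols came from a reference table (14864 matched). Positions, exon lengths and sequences are those of RefSeq on Sscrofa11.1, the same build, and primers were read from the study's supplement. The members and lists were chosen with earlier results of these data known. The genes named by rule are the members, each pathway list's DEGs and most abundant gene, and the 8 genes most like KIT. FCER1A, ENPP3, HNMT and markers of cell types were named outside this rule. A result of the KIT pathway list is not reported here. The likewise planned search for genes most like CPA3 was not possible without its identifier.

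Alternatives were DESeq2 1.42.0, its size factors, limma-voom (limma 3.58.1), at least 10 counts in every library, no filter, TMM without the 50 most abundant genes, the compared diets alone, a replicate block, flow cell as covariate or flow cell A alone, no limit on the log2FC, and each library left out. Fits without C replicates 3 and 5 and without DOP replicates 2, 4 and 5 were added after seeing the data. No replicate pair agreed within sampling noise. The 5 pigs of a diet are separate animals of 1 pen. Figures were drawn with matplotlib 3.10.9 and tables made with scipy 1.17.1, pandas 2.3.3 and numpy 2.4.6 in Python 3.11.15.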

Additional observations from a re-analysis of the deposited data

Results flagged for a closer look

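KIT in DOP replicate 1 (16.8 CPM) stood apart from the other 4 DOP pigs, which had 10.3 to 11.99 CPM. Its gap to the next pig was 0.737 of the range of the diet, above the critical value of 0.71 for 5 samples. In all, 15 groups of 5 (5 genes in 3 diets) were examined, and chance alone marks about 1 in 20 such groups. Without this library the log2FC of KIT in DOP vs. C was 0.65, and no cause was tested.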

How the results depend on the processing

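The counts of DEGs moved more than the values of the members. For DOP vs. C (114 DEGs) there were 518 with DESeq2, 19 with limma-voom, 2 with the compared diets alone, 0 with the replicate block (1950 genes at an unadjusted p under 0.05), 0 without C replicates 3 and 5 (1776), 0 without DOP replicates 2, 4 and 5 (1059) and 0 to 200 with 1 library left out, being 0 without C replicate 3, C replicate 5, DOP replicate 2 or DOP replicate 4. For WCOC vs. C (933 DEGs) there were 473 with the replicate block, 1493 with no limit on the log2FC, 486 within flow cell A, 289 without C replicates 3 and 5 and 468 to 1163 with 1 library left out. For WCOC vs. DOP (1158 DEGs) there were 561 with the replicate block, 1 with flow cell as a covariate, 1842 with no limit on the log2FC, 80 without DOP replicates 2, 4 and 5 and 639 to 1291 with 1 library left out. The log2FC of HDC in WCOC vs. DOP stayed negative in every fit that gave one, with values of -1.66 (adjusted p = 0.0625) under the replicate block, -1.63 with flow cell as a covariate and -1.56 without DOP replicates 2, 4 and 5, and the filter of at least 10 counts gave none. Replicate numbers marked no shared origin: the deviations of same-numbered libraries correlated at -0.5 to -0.12 (DOP vs. C), -0.28 to 0.34 (WCOC vs. C) and -0.2 to 0.29 (WCOC vs. DOP), so the replicate block is no pairing by design.

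The sign of some values turned, and the cause was not tested. In DOP vs. C, MS4A2 had -0.002 with limma-voom and -0.42 with flow cell as a covariate. In WCOC vs. DOP, flow cell as a covariate gave 0.15 for GATA2, 0.51 for SRGN, 1.57 for CD200R1 and 0.75 for RUNX1, limma-voom gave 0.001 for GATA2 and 0.098 for CD200R1, TMM without the 50 most abundant genes gave 0.002 for GATA2, and the replicate block gave -0.077 for VAV1. Without DOP replicates 2, 4 and 5 the values were -0.036 for KIT, -0.072 for RGS13, -0.088 for DOK2, -0.013 for LAT2 and -0.037 for STX3. With 1 library left out the ranges across 0 were -0.048 to 0.21 for KIT, -0.103 to 0.107 for GATA2, -0.005 to 0.95 for RGS13, -0.199 to 0.336 for CD200R1, -0.063 to 0.25 for DOK2, -0.16 to 0.19 for VAV1, -0.001 to 0.25 for STX3 and -0.006 to 0.296 for SPI1 in WCOC vs. DOP, and -0.1 to 0.18 for MS4A2 in DOP vs. C. Of the 10 relations between members, 1 passed an adjusted p of 0.05 by Pearson's r, beside 4 without centring on the diet means and 0 without the 2 farthest libraries, and 2 passed by Spearman's rho, beside 2 and 0. Values without centring hold the differences between diets, including those that chose KIT, and were tested by arrangements across diets. The pairs of KIT with KITLG and with GATA2 are among the 4, so that count is no check on the centred relations. Without centring, r was -0.28 for KIT and MS4A2, -0.16 for KIT and HDC, -0.25 for KITLG and MS4A2 and -0.048 for KITLG and HDC, and without the 2 farthest libraries it was -0.12 for KITLG and MS4A2. HDC rested on as few as 9 counts in a WCOC library, which limits its precision.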
